A study of Mus musculus with 12 samples.

Results

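Synaptic vesicle and fusion genes encode the proteins with which a neuron stores transmitter in vesicles and fuses these vesicles with its membrane. The genes described here were chosen by symbol from the annotation of the array: the synaptotagmins (*Syt*), the syntaxins (*Stx*, except *Stx3*), the syntaxin-binding proteins (*Stxbp*), the vesicle-associated membrane proteins (*Vamp*), all genes whose symbol starts with *Rab3*, the vesicle glycoproteins *Sv2a*, *Sv2b* and *Sv2c*, the synapsins *Syn1*, *Syn2* and *Syn3*, the synaptogyrins (*Syngr*) and the *Snap* genes with a number. They were 77 of 18194 genes with a probe set of their own, with 176 of 45101 probe sets. For each gene the probe set with the highest mean normalized signal is given. The letters *Rab3* also start the symbols of 12 genes from *Rab30* to *Rab39b*, which are other Rab GTPases, and without them there were 65 genes.

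Total RNA of mouse retina was hybridized to 12 Affymetrix arrays, 3 in each of 4 groups: *Otx2* CKO and control retina at postnatal day 1 (P1), and *Otx2* CKO and control retina at P12. *Otx2* CKO mice were otx2 flox/flox; Crx-Cre+, so that Cre recombinase under the *Crx* promoter, which is active in developing photoreceptors, deletes *Otx2*, a homeobox gene of photoreceptor and bipolar cell development. Control mice were otx2 flox/flox; Crx-Cre- and thus carried the same floxed alleles without Cre. No source says how many retinas or animals went into an array, so p values measure the spread between these arrays, which may be technical.

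At a chemical synapse, vesicles carry SNARE proteins of the Vamp family, which pair with Stx1 and Snap25 on the plasma membrane and draw both membranes together. Synaptotagmins bind the calcium that triggers this step, although some members of the family do not bind calcium and serve in other membrane traffic. Rab3 GTPases and synapsins hold vesicles near the release site, and SV2 and synaptogyrin proteins span the vesicle membrane. In the retina, photoreceptors and bipolar cells release glutamate at ribbon synapses, which use syntaxin 3 and lack synapsins, whereas amacrine cells form conventional synapses with syntaxin 1 and synapsins.

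The arrays were brought to a common distribution by quantile normalization, and signals below are given in these normalized units. As deposited the arrays did not share a scale: their trimmed means were 22.0 to 30.3 at P1 and 96.6 to 172 at P12, with the first P12 *Otx2* CKO array the brightest. *Otx2* itself checked the labels. Its signals were 96.6, 114 and 67.5 in *Otx2* CKO retina at P12, against 937, 592 and 588 in control retina (log2 change -2.72 ± 0.23 SE, limma adjusted p = 5.8e-06). At P1 they were 377, 336 and 427 in *Otx2* CKO retina, against 901, 841 and 639 in control retina (log2 change -1.02 ± 0.23 SE, adjusted p = 0.217). The groups did not overlap at either age and ran as the titles say, although some of the descriptions give the opposite genotype.

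Markers of several cell types moved with genotype at P12. Photoreceptor and bipolar markers were lower. The sums below run over all measured markers of a cell type, tested or not. All 11 photoreceptor markers measured were lower in the *Otx2* CKO retina, and the sum of their signals was 692 to 1449 per array, against 27880 to 29720 in control retina. Of 8 bipolar cell markers 6 were tested and all 6 were lower, with sums of 234 to 356 in *Otx2* CKO retina and 3585 to 3927 in control retina. By contrast, 3 of 9 tested amacrine cell markers were higher (sums of 7425 to 8011 in *Otx2* CKO retina, against 5151 to 5645 in control retina), as were 2 of 6 Muller glia markers and all 6 tested microglia markers (sums of 1153 to 2348 in *Otx2* CKO retina, against 335 to 668 in control retina). Among the tested horizontal cell markers *Onecut2* was higher (log2 change 1.42) and *Calb1* lower (-1.48), and the progenitor marker *Hes5* (1.85) and the vessel marker *Kdr* (1.05) were higher. The other vessel markers had lower means in *Otx2* CKO retina. Of these *Cldn5* did not pass (log2 change -0.79 ± 0.25 SE, limma adjusted p = 0.0532), and *Pecam1* and *Cdh5* were not tested. No marker mean was at 0, but in the *Otx2* CKO retina 6 of 11 photoreceptor and 7 of 8 bipolar marker means lay under a signal of 50. In control retina 4 of 7 microglia marker means did, among them *Aif1*, *Cx3cr1* and *Tyrobp*, as did those of *Onecut2* and *Hes5*. A gene was tested if the mean of either genotype reached 50. Tested markers with 1 mean under 50 thus entered the test only through the genotype where they were higher. In bulk tissue fewer cells of a type and less RNA per cell cannot be told apart, and the part of these shifts in the changes below was not tested.

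At P12 most genes of the core release machinery did not pass the test between the genotypes. Synapsin 3, synaptotagmins 11 and 16, syntaxins 1A and 7, *Rab31* and *Rab33b* were higher in the *Otx2* CKO retina, whereas *Sv2b*, *Syngr1*, *Syt9* and *Rab3gap1* were lower. The changes ranged from 1.54-fold to 3.73-fold in the first group, the highest of them, of *Syt16*, against a control mean under the signal limit, and the signals of the second group were 1.57-fold to 2.26-fold higher in control retina. Genes entered the test with a mean signal of 50 or more in either genotype, which held for 55 of the 77 genes. Of these, 7 (12.7%) were higher and 4 (7.27%) were lower at a limma adjusted p under 0.05, where 8.51% of 9306 genes tested were higher and 8.71% were lower. Both shares lay near those of all genes, which also stand beside the counts of the smaller groups of genes below. The median log2 change was 0.18 over the 55 genes and 0.07 over all genes tested, and 10 genes were higher and 6 lower at an unadjusted p under 0.05, where 15.7% and 13.5% of all genes were. Without *Rab30* to *Rab39b* there were 5 higher and 4 lower of 47 tested. On signals as deposited 14 were higher and 1 was lower, where 75.7% of all called probe sets were higher, against 48.4% after normalization, and the median of all probe sets was 0.39.

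The other 22 of the 77 genes had mean signals under 50 in both P12 groups and were not tested. Of the 44 tested genes that did not pass, 40 had overlapping arrays and 28 had a log2 change under 0.3 in size. Neither count was made over all genes of the array, so both only describe these genes. *Syt16* entered the test only through its *Otx2* CKO arrays, since its control mean was 41.4, while both group means of the other 10 genes were above the limit.

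**Figure D1:**
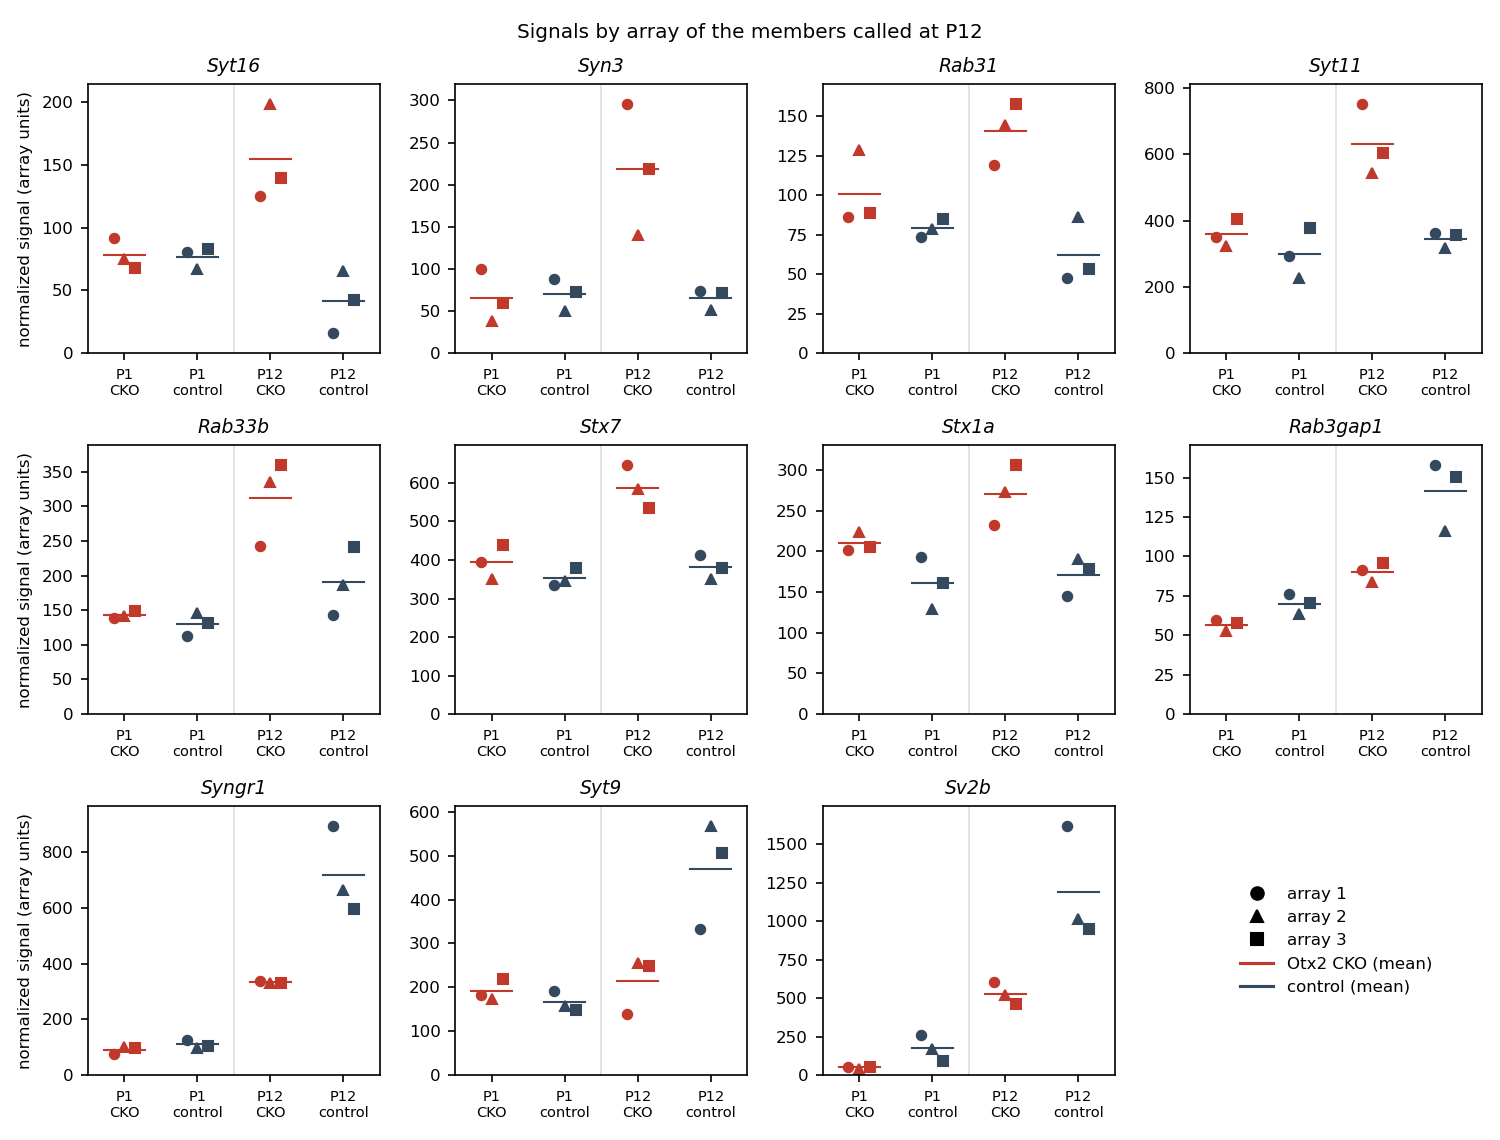
Normalized signal (y axis, linear from 0, in array units) of the 11 genes past the threshold at P12, with *Otx2* CKO arrays in red and control arrays in dark blue at P1 and P12. Symbols stand for the array number and lines for group means (n = 3). The P12 arrays of both genotypes do not overlap in any of the 11 panels, which the choice of these genes by adjusted p favors.

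Of 4 tested vesicle membrane genes 2 were lower at P12. *Sv2b*, a vesicle glycoprotein found at photoreceptor terminals, had P12 signals of 604, 517 and 458 in *Otx2* CKO retina, against 1615, 1013 and 946 in control retina. All *Otx2* CKO arrays lay below all control arrays, and the log2 change was -1.12 ± 0.31 (SE, limma adjusted p = 0.0273). A further probe set of the gene gave -1.25 ± 0.27 (adjusted p = 0.0065). The call of the brighter probe set was lost without the P12 control array 1 (adjusted p = 0.0781), without the *Otx2* CKO array 2 (0.0601) or without the *Otx2* CKO array 3 (0.0971). At P1 its signals were 55.1, 40.2 and 52.6 in *Otx2* CKO retina, against 261, 168 and 91.7 in control retina. These arrays did not overlap either, with a log2 change of -1.44 ± 0.31 (adjusted p = 0.176), and the second probe set gave -1.41 ± 0.27 (adjusted p = 0.0766). At that age all 7 tested photoreceptor markers were lower too. The signals of all 11 photoreceptor markers summed to 126 to 314 in *Otx2* CKO retina and 1958 to 3613 in control retina. The P1 *Otx2* CKO means of *Sv2b*, *Sag*, *Rcvrn*, *Crx*, *Opn1sw*, *Gnat2* and *Gnb3* lay under the signal limit. These genes thus entered the P1 test only through their control arrays. The part of the photoreceptor markers in the *Sv2b* values was not tested.

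*Syngr1*, which encodes the neuronal synaptogyrin 1, had P12 signals of 338, 330 and 330 in *Otx2* CKO retina, against 893, 664 and 595 in control retina. The *Otx2* CKO arrays were nearly level and all lay below the control arrays (log2 change -1.05 ± 0.19 SE, limma adjusted p = 0.00243). A dimmer probe set of this gene overlapped between the genotypes (-0.24 ± 0.24, adjusted p = 0.578). At P1 *Syngr1* gave 74.9, 101 and 98.0 in *Otx2* CKO retina and 128, 97.8 and 106 in control retina, which overlapped.

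The other vesicle glycoproteins did not pass. *Sv2a*, the form found in most neurons, had P12 signals of 512, 1003 and 631 in *Otx2* CKO retina and 393, 958 and 634 in control retina, which overlapped (log2 change 0.14 ± 0.30 SE, adjusted p = 0.812). *Sv2c* stayed at 3.03 to 13.1 in *Otx2* CKO retina and 5.32 to 14.5 in control retina and was not tested. *Syngr3*, another neuronal synaptogyrin, gave 0.31 ± 0.25 (adjusted p = 0.48), and *Syngr2* and *Syngr4* were under the signal limit at P12.

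The upstream sequences of 4 genes past the threshold are shown because the deleted factor, OTX2, binds sites with the core TAATCC. The 250 bases before each annotated start were read from RefSeq (GRCm38.p6), which held windows for 60 of the 77 genes. TAATCC or its reverse complement GGATTA, in capitals, was searched on both strands. Among the 10 genes past the threshold at P12 that had a window, *Sv2b* alone held it, in 2 of its 4 windows for separate starts. The first base of the motif lay 91 bases before one start and 150 bases before another.
*Sv2b*, chr7:75302610-75302859, minus strand, GRCm38.p6: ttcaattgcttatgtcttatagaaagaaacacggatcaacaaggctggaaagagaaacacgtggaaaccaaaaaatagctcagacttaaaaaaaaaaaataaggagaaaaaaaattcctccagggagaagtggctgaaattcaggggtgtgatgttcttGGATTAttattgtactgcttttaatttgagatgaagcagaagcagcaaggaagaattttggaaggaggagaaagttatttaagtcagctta
*Sv2b*, chr7:75309263-75309512, minus strand, GRCm38.p6: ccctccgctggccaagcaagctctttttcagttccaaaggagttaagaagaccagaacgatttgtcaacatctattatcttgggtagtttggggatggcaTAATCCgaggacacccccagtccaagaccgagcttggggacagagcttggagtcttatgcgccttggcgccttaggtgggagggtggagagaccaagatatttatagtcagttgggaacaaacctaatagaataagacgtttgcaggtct
*Syngr1*, chr15:80091084-80091333, plus strand, GRCm38.p6: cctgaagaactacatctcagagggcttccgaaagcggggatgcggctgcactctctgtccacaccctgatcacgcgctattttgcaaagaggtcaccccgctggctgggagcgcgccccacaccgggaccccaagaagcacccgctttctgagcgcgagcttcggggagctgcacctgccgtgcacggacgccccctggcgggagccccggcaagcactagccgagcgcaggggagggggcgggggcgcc
*Syt9*, chr7:107370540-107370789, plus strand, GRCm38.p6: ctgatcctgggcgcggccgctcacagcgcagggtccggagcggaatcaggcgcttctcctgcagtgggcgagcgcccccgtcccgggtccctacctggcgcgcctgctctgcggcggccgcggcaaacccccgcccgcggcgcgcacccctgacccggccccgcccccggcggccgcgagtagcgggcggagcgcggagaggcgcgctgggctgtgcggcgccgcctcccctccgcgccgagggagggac
*Syt16*, chr12:73997527-73997776, plus strand, GRCm38.p6: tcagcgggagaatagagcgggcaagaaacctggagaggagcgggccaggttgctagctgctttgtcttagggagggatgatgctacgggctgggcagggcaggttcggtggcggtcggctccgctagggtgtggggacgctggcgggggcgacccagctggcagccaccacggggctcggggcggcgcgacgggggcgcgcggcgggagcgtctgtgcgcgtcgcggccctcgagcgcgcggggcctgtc
The motif stood in 3 of 81 windows of the 77 genes (3.7%), against 6.25% of 32851 windows of all genes. The third of these windows belonged to *Rab3ip*. A match is a run of letters in the window and was not tested for binding.

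Of the synapsins, which coat vesicles and tether them in reserve, 1 of 3 passed the threshold, and *Syn1* passed as well with the block described below (adjusted p = 0.026). *Syn3* had P12 signals of 295, 140 and 219 in *Otx2* CKO retina, against 73.3, 51.3 and 71.3 in control retina. Every *Otx2* CKO array exceeded every control array, and the means of 218 ± 77.4 in *Otx2* CKO retina and 65.3 ± 12.2 in control retina (SD, n = 3 each) differed 3.34-fold (log2 change 1.48 ± 0.31 SE, limma adjusted p = 0.00606). A second probe set gave 1.53 ± 0.21 (adjusted p = 0.000247), and a dim one was not tested. At P1 *Syn3* overlapped between the genotypes, with 99.3, 38.6 and 59.1 in *Otx2* CKO retina and 88.5, 49.9 and 71.9 in control retina. *Syn1* had P12 signals of 345, 683 and 512 in *Otx2* CKO retina and 282, 481 and 352 in control retina, which overlapped (0.43 ± 0.28, adjusted p = 0.351). *Syn2* gave 63.3, 142 and 79.8 in *Otx2* CKO retina and 56.9, 138 and 93.3 in control retina (-0.01 ± 0.31, adjusted p = 0.988).

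Most SNAREs that carry out fusion itself did not pass. *Vamp2*, the main vesicle SNARE of the brain, had P12 signals of 1231, 942 and 779 in *Otx2* CKO retina and 764, 1174 and 888 in control retina (log2 change 0.06 ± 0.21 SE, adjusted p = 0.89). *Vamp1*, its close relative, gave 56.4, 95.3 and 73.7 in *Otx2* CKO retina and 37.8, 140 and 83.2 in control retina (-0.07 ± 0.32, adjusted p = 0.921). *Snap25*, the plasma membrane partner, gave 2543, 905 and 1503 in *Otx2* CKO retina and 3443, 746 and 2042 in control retina (-0.20 ± 0.51, adjusted p = 0.844). In all 3 genes the arrays of both genotypes overlapped, and in *Snap25* the arrays numbered 2 were the lowest of either genotype.

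*Stx1a*, the syntaxin of conventional synapses, was the exception among these SNAREs. Its P12 signals were 232, 273 and 306 in *Otx2* CKO retina, against 145, 190 and 178 in control retina. The groups did not overlap (log2 change 0.61 ± 0.19 SE, limma adjusted p = 0.0467), yet the call was lost when any of 10 of the 12 arrays was left out, all but the P12 control array 2 and the P12 *Otx2* CKO array 1 (adjusted p 0.0404 to 0.163 over the 12). A second probe set gave 0.44 ± 0.21 (adjusted p = 0.18). At P1 its signals were 202, 223 and 205 in *Otx2* CKO retina and 193, 129 and 161 in control retina (0.37 ± 0.19, adjusted p = 1).

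Among 16 synaptotagmins 10 were tested at P12, of which 2 were higher and 1 was lower. *Syt16*, a family member that does not bind calcium, had P12 signals of 126, 198 and 139 in *Otx2* CKO retina, against 15.9, 65.5 and 42.7 in control retina. The lowest *Otx2* CKO array lay above the highest control array, and the means differed 3.73-fold, with the control mean under the signal limit (log2 change 1.65 ± 0.30 SE, limma adjusted p = 0.00219). At P1 both genotypes overlapped at 91.9, 75.0 and 67.8 in *Otx2* CKO retina and 80.5, 66.9 and 83.2 in control retina.

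*Syt11*, which takes part in endocytosis and also does not act as a calcium sensor, had P12 signals of 751, 543 and 605 in *Otx2* CKO retina, against 362, 318 and 356 in control retina. The control arrays were nearly level and the *Otx2* CKO arrays all above them (log2 change 0.83 ± 0.20 SE, limma adjusted p = 0.0127). Of its 5 probe sets 3 were past the threshold, all higher. *Syt9*, a fast calcium sensor of release, went the other way. Its P12 signals were 139, 254 and 249 in *Otx2* CKO retina, against 333, 567 and 506 in control retina, without overlap (-1.09 ± 0.26, adjusted p = 0.0117). Its P1 signals of 182, 173 and 218 in *Otx2* CKO retina and 192, 158 and 149 in control retina overlapped.

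*Syt1*, the main calcium sensor of fast release, had P12 signals of 2126, 1370 and 2201 in *Otx2* CKO retina and 2736, 1160 and 2619 in control retina, which overlapped (log2 change -0.12 ± 0.32 SE, adjusted p = 0.844). *Syt2*, the fast sensor of many inhibitory and some bipolar terminals, gave 44.5, 67.8 and 47.1 in *Otx2* CKO retina and 29.5, 48.9 and 25.2 in control retina, with overlap (0.46 ± 0.22, adjusted p = 0.195). The other 5 tested synaptotagmins had log2 changes of -0.04 to 0.56 and did not pass the threshold.

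Among the Rab3 GTPases and their partners, *Rab3a*, the main Rab of synaptic vesicles, did not pass at P12. Its signals were 838, 1093 and 884 in *Otx2* CKO retina and 826, 1129 and 820 in control retina (log2 change 0.03 ± 0.19 SE, adjusted p = 0.952). *Rab3gap1*, the catalytic subunit of the enzyme that switches Rab3 off, gave 91.3, 83.8 and 95.9 in *Otx2* CKO retina, against 158, 116 and 150 in control retina. The groups did not overlap (-0.56 ± 0.17, limma adjusted p = 0.0398), but the call was lost without any of 11 of the 12 arrays, all but the P12 control array 2 (adjusted p 0.0181 to 0.114 over the 12). None of the 4 tested syntaxin-binding proteins passed the threshold, but *Stxbp6* (adjusted p = 0.00129) and *Stxbp5* (0.014) did with the block described below.

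Among 14 tested SNAREs of other membrane steps 1 passed the threshold. *Stx7*, a syntaxin of late endosomes, had P12 signals of 646, 583 and 536 in *Otx2* CKO retina, against 414, 350 and 379 in control retina. All *Otx2* CKO arrays were above all control arrays (log2 change 0.61 ± 0.15 SE, limma adjusted p = 0.0172), and without the P12 *Otx2* CKO array 1 the adjusted p was 0.0563. Of the 8 tested genes from *Rab30* to *Rab39b* 2 were higher and none was lower. *Rab31*, a Rab of traffic between the Golgi and endosomes, gave 119, 144 and 158 in *Otx2* CKO retina, against 47.3, 86.5 and 53.3 in control retina, without overlap (1.02 ± 0.22, adjusted p = 0.00691). A dimmer probe set gave 0.71 ± 0.22 (adjusted p = 0.0503).

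*Rab33b*, a Golgi Rab that also acts in autophagy, gave 242, 335 and 359 in *Otx2* CKO retina at P12, against 143, 186 and 242 in control retina. The lowest *Otx2* CKO array and the highest control array nearly touched (log2 change 0.68 ± 0.21 SE, limma adjusted p = 0.0492). The call was lost without any of 10 of the 12 arrays, all but the P12 control array 3 and the P12 *Otx2* CKO array 1 (adjusted p 0.0243 to 0.171 over the 12).

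**Figure D2:**
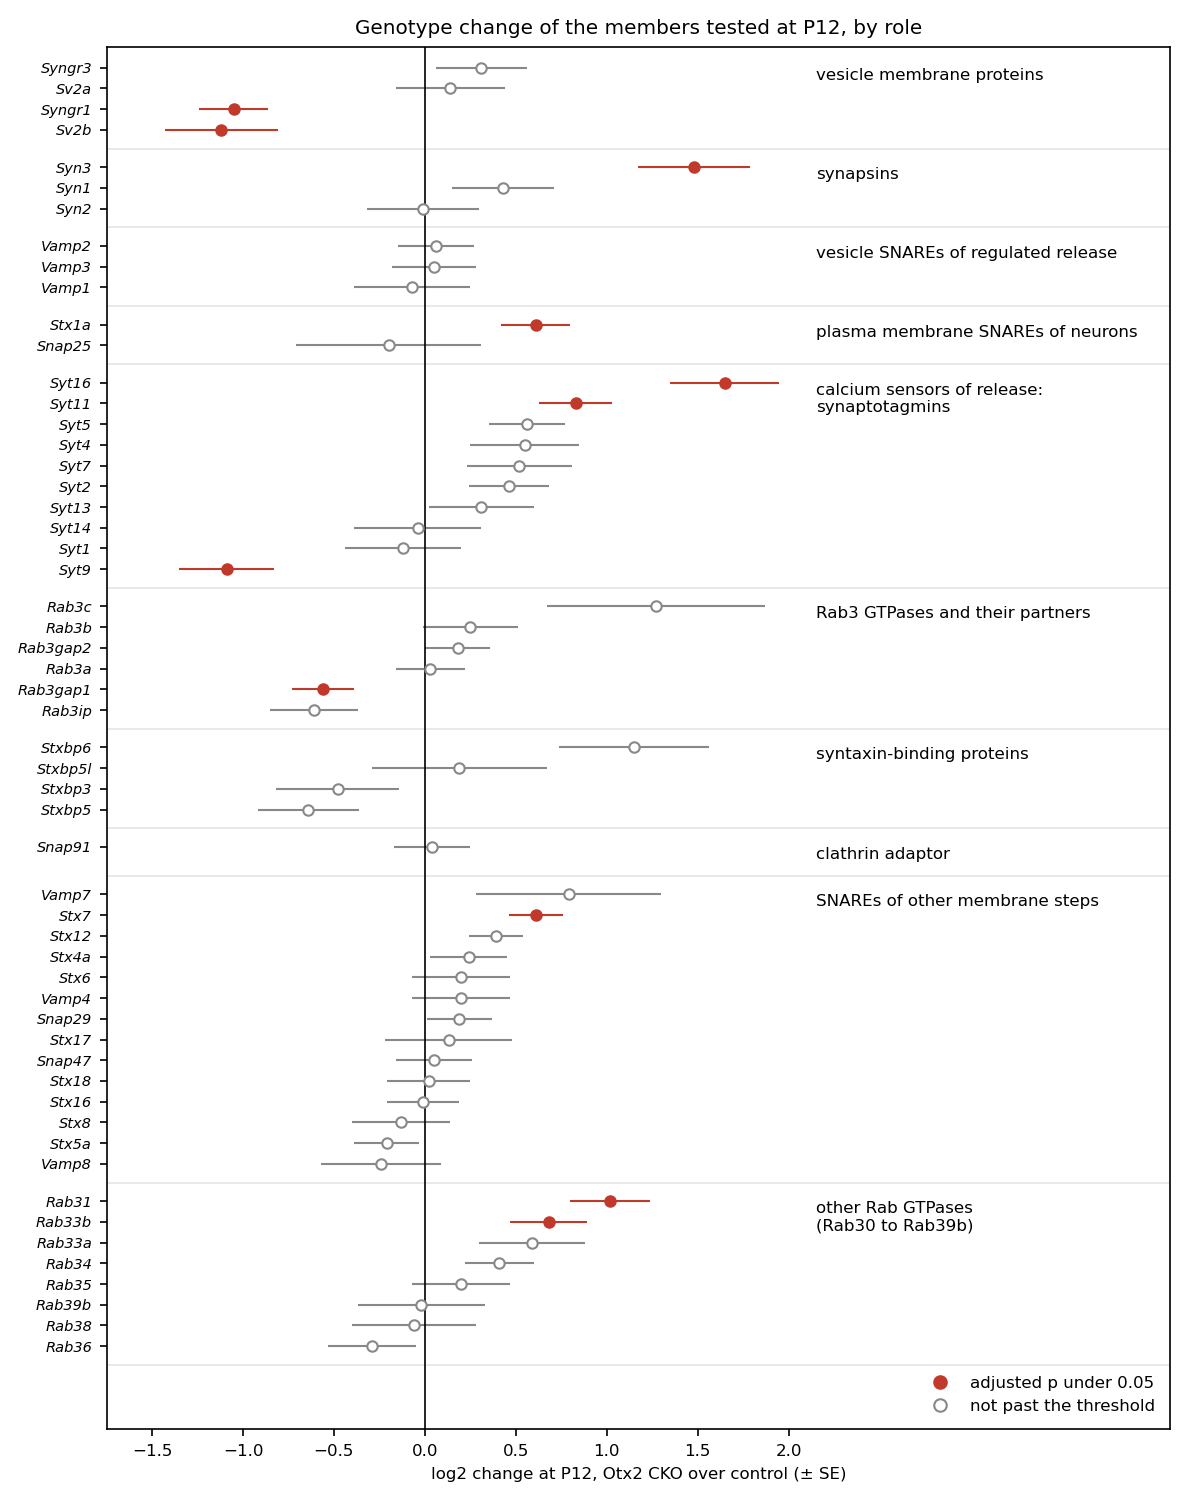
Log2 change at P12, *Otx2* CKO over control (x axis, ± SE), of the 55 tested genes, grouped by role from top to bottom. Filled red points mark the 11 genes with an adjusted p under 0.05. The points run from -1.12 (*Sv2b*) to 1.65 (*Syt16*), and 28 of the 44 other genes lie within 0.3 of no change.

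Same-numbered arrays of an age deviated together, so the comparison was also fitted with the array number within an age as a block, an alternative chosen after seeing the data. It left the changes as they were, narrowed their errors and called 16 genes higher (29.1%) and 6 lower (10.9%), among them all 11 above, where 21.3% of all genes tested were higher and 16.4% were lower. The 11 genes added were named after their values were seen. *Rab3c*, a vesicle Rab, was higher in each pair of P12 arrays, by 1.17, 1.65 and 1.0 on the log2 scale (adjusted p = 0.000345 with the block and 0.185 without it). Of its 5 probe sets another was called higher without the block (0.68 ± 0.20, adjusted p = 0.0355). The same held for *Stxbp6*, which encodes amisyn, a SNARE-binding brake on fusion, by 0.83, 1.38 and 1.24 (0.00129 with the block and 0.0775 without it). *Stxbp5*, which encodes the release inhibitor tomosyn, was lower in each pair, with differences of -0.90, -0.18 and -0.83 (0.014 with the block and 0.156 without it). Of its 3 probe sets another was called lower without the block (-0.94 ± 0.23, adjusted p = 0.0139).

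The second added gene in that direction was *Rab3ip*, an exchange factor of Rab GTPases, with pair differences of -0.40, -0.76 and -0.67 (adjusted p = 0.00941 with the block and 0.107 without it). *Syn1* also crossed the threshold, by 0.27, 0.49 and 0.52 (0.026 with the block and 0.351 without it). The other 6 were *Vamp7* and *Stx12*, SNAREs of endosomes, *Syt5* and *Syt7*, calcium sensors of the synaptotagmin family, and *Rab33a* and *Rab34*. All 6 were higher, by 0.39 to 0.79 on the log2 scale, with adjusted p of 0.0117 to 0.0442 with the block.

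**Figure D3:**
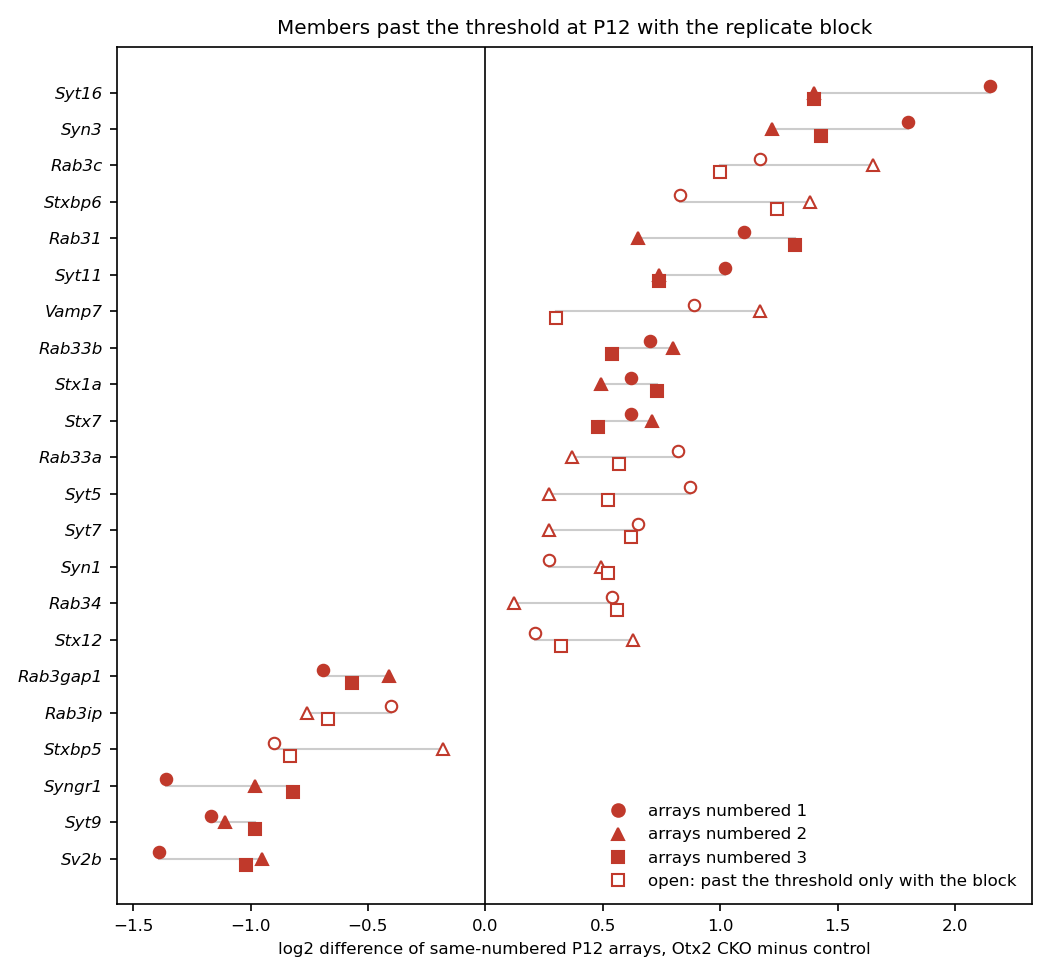
Log2 difference between same-numbered P12 arrays, *Otx2* CKO minus control (x axis), for the 22 genes past the threshold with the block. Each symbol is 1 pair of arrays, filled for the 11 genes also called without the block. All 3 pairs of each gene lie on 1 side of 0, which the choice of these genes by the block favors, and the pairs of *Stxbp5* reach from -0.90 to -0.18.

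At P1 no gene passed the threshold between the genotypes. Of 53 tested, 0 were higher and 0 lower by limma, where 0% of 8734 genes were higher and 0.343% were lower, and at an unadjusted p under 0.05 there was 1 in each direction, where 1.42% of all genes were higher and 1.71% lower. The median log2 change was 0.05 over these genes and 0.01 over all genes tested. With the block *Sv2b* was the 1 gene called lower (adjusted p = 0.0107), where 0.801% of all genes were lower. *Sv2b* was also the 1 gene called when the P1 control array 3, its lowest P1 control array, was left out.

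Whether the effect of genotype differed between the ages was tested by the interaction in the same model. Of 59 genes tested, *Syt16* alone passed (1.69%), with a difference of 1.63 ± 0.42 on the log2 scale (limma adjusted p = 0.049), where 1.5% of 9974 genes were higher and 3.5% were lower. At an unadjusted p under 0.05 there were 5 higher and 3 lower, where 8.31% and 8.53% of all genes were. On signals as deposited 4 were higher and 0 lower, where 63.2% of all called probe sets were higher, against 28.9% after normalization. The call of *Syt16* was lost without any of 10 of the 12 arrays, all but the P12 control arrays 1 and 2 (adjusted p 0.00824 to 0.135 over the 12). *Syn3* gave 1.60 ± 0.44 (adjusted p = 0.0663) and *Syt9* -1.27 ± 0.36 (0.0768). For *Sv2b* the difference was 0.32 ± 0.44 (adjusted p = 0.8), so that its P12 and P1 changes were not shown to differ. With the block 6 genes (10.2%) were higher and 3 (5.08%) lower, against 10.2% and 8.71% of all genes, among them *Syn3* (adjusted p = 0.000675), *Syt16* (0.00116) and *Syt9* (0.00151). The others were *Rab3c* (1.22, adjusted p = 0.00984), *Stxbp6* (1.46, 0.00606), *Syt2* (1.09, 0.0101) and *Vamp7* (1.19, 0.0441), all higher, and *Syngr1* (-0.82, 0.0334) and *Rab3ip* (-0.74, 0.0377), both lower. *Syt2* entered this test only through its P12 *Otx2* CKO arrays. Its means were under the signal limit in both genotypes at P1, where no effect of genotype could be tested, and in P12 control retina.

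In control retina many genes of the core release machinery were higher at P12 than at P1. *Sv2b*, *Syngr1*, *Sv2a*, *Vamp2*, *Rab3a*, *Syn1*, *Syn2* and *Syt1* were all more than 3-fold higher at P12. Of 57 genes tested 17 (29.8%) were higher and 3 (5.26%) lower in P12 control than in P1 control retina, where 21.1% of 9565 genes were higher and 19% were lower. Among those higher, *Syn2*, *Vamp1*, *Stxbp5* and *Rab38* had P1 means under the signal limit and entered the test only through their P12 arrays. The median log2 change was 0.26 over these genes and -0.03 over all genes tested. These values are relative to the other RNAs of each array, since normalization sets the arrays of both ages to 1 distribution. On signals as deposited, 53 genes were higher and 0 lower, and 98.2% of all called probe sets were higher, against 49.9% after normalization. The median of all probe sets was then 1.45.

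*Sv2b* had signals of 1615, 1013 and 946 in P12 control retina, against 261, 168 and 91.7 in P1 control retina (log2 change 2.73 ± 0.31 SE, limma adjusted p = 2.63e-05). *Syngr1* gave 893, 664 and 595 at P12, against 128, 97.8 and 106 at P1 (2.52 ± 0.19, adjusted p = 9.71e-07). *Sv2a* gave 393, 958 and 634 at P12, against 119, 109 and 109 at P1 (2.31 ± 0.30, adjusted p = 8.48e-05). In each of these genes all P12 arrays lay above all P1 arrays, and their log2 changes were the largest 3 of the 57.

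*Vamp2* gave 764, 1174 and 888 at P12, against 176, 175 and 213 at P1 (log2 change 2.21 ± 0.21 SE, limma adjusted p = 5.12e-06), and *Rab3a* rose by 1.84 ± 0.19 (adjusted p = 1.47e-05). *Syn2*, *Syn1* and *Syt1* rose by 1.67, 1.65 and 1.63, and *Vamp1* by 1.26 (adjusted p of 0.00821 or lower), where *Syn2* and *Vamp1* were under the signal limit at P1. *Snap91*, a clathrin adaptor that helps to reform vesicles, rose by 1.63 ± 0.21. *Snap25* did not pass, with 3443, 746 and 2042 in P12 control retina and 984, 948 and 631 in P1 control retina (1.04 ± 0.51, adjusted p = 0.125). Its P12 control array 2 lay within the range of the P1 arrays. Unlike *Syn1* and *Syn2*, *Syn3* did not pass with age (-0.07 ± 0.31, adjusted p = 0.878).

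The 3 genes that fell with age in control retina were *Syngr2*, *Vamp3* and *Rab34*. *Syngr2*, a synaptogyrin found mainly outside neurons, had signals of 9.25, 67.0 and 35.7 at P12, against 91.5, 113 and 91.5 at P1 (log2 change -1.26 ± 0.41 SE, limma adjusted p = 0.0271). Its P12 mean lay under the signal limit, so it entered this test only through its P1 arrays. *Vamp3*, the vesicle SNARE of recycling endosomes in most cells, gave 163, 109 and 137 at P12, against 293, 342 and 278 at P1 (-1.08 ± 0.23, adjusted p = 0.00259). *Rab34*, a Rab of the Golgi and of primary cilia, changed by -0.60 ± 0.19 (adjusted p = 0.0236). In all 3 every P12 array was lower than every P1 array, but on signals as deposited the changes were 0.12, 0.52 and 1.01, in the opposite direction, beside the array-wide median of 1.45. They were also positive with quantile normalization within each age, and for *Rab34* with spike scaling. With 1 array left out, the call held in 7 of 12 fits for *Syngr2*, 8 of 12 for *Rab34* and 12 of 12 for *Vamp3*. The call of *Vamp3* was lost with the probe set that is brightest on signals as deposited. Called lower were 1 of 2 probe sets of *Syngr2*, 1 of 2 of *Rab34* and 2 of 5 of *Vamp3*.

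In the *Otx2* CKO retina many of the same genes were higher with age. Of 57 genes tested 21 (36.8%) were higher and 3 (5.26%) lower in P12 *Otx2* CKO than in P1 *Otx2* CKO retina, where 16% of 9454 genes were higher and 13.1% were lower. Among those higher, *Sv2b*, *Syn2*, *Vamp1*, *Stxbp5* and *Syt2* had P1 means under the signal limit and entered only through their P12 arrays. As in control retina these values are relative to each array, and on signals as deposited 63 were higher and 0 lower, where 99.4% of all called probe sets were higher, against 51.8% after normalization. Of the genes called, 24 in *Otx2* CKO and 20 in control retina, 15 were called in both, 14 of them higher and 1, *Vamp3*, lower. The genes called in both were not counted over the whole array, so this count only describes these genes. *Vamp2* rose by 2.22 ± 0.21 in *Otx2* CKO and 2.21 ± 0.21 in control retina, and *Sv2a* by 2.31 ± 0.30 in both. *Rab3a* rose by 1.62 ± 0.19 in *Otx2* CKO and 1.84 ± 0.19 in control retina, and *Syt1* by 1.54 ± 0.31 in *Otx2* CKO retina and 1.63 ± 0.31 in control retina. The 2 series of values have no array in common, and the test of their difference is the interaction above.

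**Figure D4:**
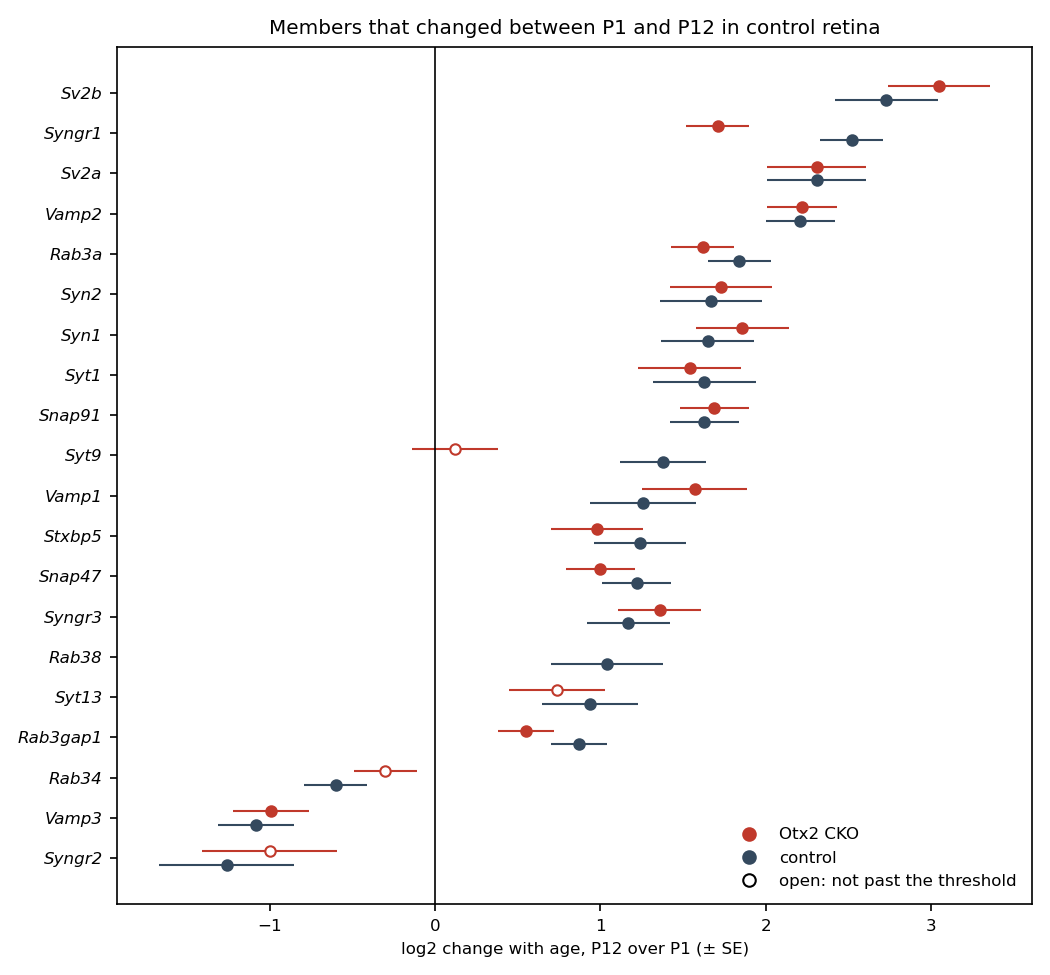
Log2 change with age, P12 over P1 (x axis, ± SE), in *Otx2* CKO retina (red) and control retina (dark blue), for the 20 genes called in control retina. Filled points have an adjusted p under 0.05. *Syt9* rises by 1.38 in control retina and lies at 0.12 in *Otx2* CKO retina, and *Rab38* was under the signal limit in *Otx2* CKO retina.

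Apart from the core proteins, *Syt9* gave 0.12 ± 0.26 with age in *Otx2* CKO retina (limma adjusted p = 0.778) and rose by 1.38 ± 0.26 in control retina (adjusted p = 0.00104). *Syngr1* rose in both, by 1.71 ± 0.19 in *Otx2* CKO and 2.52 ± 0.19 in control retina, and *Sv2b* by 3.05 ± 0.31 in *Otx2* CKO retina and 2.73 ± 0.31 in control retina. *Syn3* rose in *Otx2* CKO retina by 1.53 ± 0.31 (adjusted p = 0.00322).

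For comparison, 54 other presynaptic genes were listed, of which 50 had a probe set of their own and 47 were tested at P12. Of these 8 were lower and 2 higher in the *Otx2* CKO retina, where 8.71% of all genes were lower and 8.51% higher. The largest losses were of genes used at photoreceptor and bipolar terminals: *Slc17a7*, the vesicular glutamate transporter (log2 change -4.82 ± 0.22 SE, limma adjusted p = 1.19e-07), *Cplx4*, a ribbon synapse complexin (-3.94 ± 0.28, 1e-06), *Cacna1f*, the calcium channel of photoreceptor terminals (-3.18 ± 0.26, 3.53e-06), and *Stx3*, the ribbon synapse syntaxin (-3.07 ± 0.25, 3.45e-06). *Stx3* had signals of 221, 207 and 240 in *Otx2* CKO retina, against 2081, 1558 and 2420 in control retina. Most of the list did not pass, among them another complexin, *Cplx3* (-0.27 ± 0.19, adjusted p = 0.383). Nor did *Bsn* (0.76 ± 0.30, adjusted p = 0.11) or *Pclo* (0.22 ± 0.47, adjusted p = 0.813). The 2 higher genes were *Synpr*, a vesicle protein, by 1.18 ± 0.28 (adjusted p = 0.0115), and *Slc32a1*, the vesicular transporter of GABA and glycine, by 1.0 ± 0.28 (0.0302). The *Otx2* CKO means of *Slc17a7*, *Cplx4* and *Cacna1f* lay under the signal limit, so these genes entered the test only through their control arrays.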

How the data were processed

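Total RNA of mouse retina was measured on 12 Affymetrix whole-genome mouse arrays, 3 per group. The authors scanned the arrays with GeneChip Operating Software, and the deposited values are linear signal intensities of 45101 probe sets, with no scaling stated. Here the arrays were quantile normalized together, 16 was added and log2 was taken. This sets aside the differences in array brightness that the deposited signals hold. A single model of 4 groups was fitted with limma 3.58.1 (lmFit, eBayes with trend) in R 4.3.3. Probe sets with a mean signal of at least 50 in a compared group were tested, and p values were adjusted by Benjamini-Hochberg over all of them, with a threshold of 0.05. All model p values are two-sided. Intensities give no counting error, and the number of arrays limits the precision.

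Groups came from the sample titles and genotype labels. Some descriptions give the opposite genotype, but *Otx2* levels followed the titles. Of the probe sets, 34958 had 1 gene symbol, 932 several and 9211 none, and only those with 1 symbol were named. The brightest probe set of a gene stands for it, and 52 of the 77 genes had more than 1. Replicate arrays correlated at 0.752 to 0.974 on the log2 scale. Same-numbered arrays of an age deviated together (6 pairs, r of 0.146 to 0.894), and the pairing comes from this check and not from the labels. Some same-numbered arrays of different ages did so too (12 pairs, r of -0.0992 to 0.696). Arrays of different ages and numbers gave r of -0.735 to 0.267 (24 pairs). The main fit has no term for such shared deviations. The fit was checked on simulated data in which arrays varied independently, so the check does not cover arrays that deviate together. The promoter windows are from RefSeq. Alternatives were other scalings, offsets, signal limits, probe sets and variance models, replicate blocks, and each array left out.

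The members and gene lists were chosen with earlier results of these data known. Named were the genes past the threshold by genotype or in the difference between the ages, a fixed set of core release genes, the 3 largest rises and falls with age in control retina, *Otx2*, and up to 4 rises and 4 falls among the other presynaptic genes. Further genes named for the block, for age or among the other presynaptic genes were chosen after their values were seen.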

Additional observations from a re-analysis of the deposited data

Results flagged for a closer look

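The interaction test of the limma model, which compares the effect of genotype between the ages, passed for 6 of the genes named above. In 3 of them genotype could be tested at both ages. For *Syt16* the difference of the log2 changes, P12 minus P1, was 1.63 ± 0.42 (SE, adjusted p = 0.049), and its groups overlapped at P1 and not at P12. For *Otx2* it was -1.70 ± 0.33 (adjusted p = 0.0105), with log2 changes of -2.72 at P12 and -1.02 at P1. For *Stx3* it was -1.95 ± 0.35 (adjusted p = 0.00633). The other 3 lay under the signal limit in both genotypes at P1, where no effect of genotype could be tested, so that the interaction restates their change at P12. They gave -4.81 ± 0.31 for *Slc17a7* (adjusted p = 1.89e-05), -3.64 ± 0.39 for *Cplx4* (0.000144) and -2.89 ± 0.36 for *Cacna1f* (0.000488).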

How the results depend on the processing

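At P12, *Syn3*, *Syngr1* and *Syt16* kept their call under all 27 alternatives, *Rab31* under 26, *Syt11* under 25, *Syt9* and *Stx7* under 24, *Sv2b* under 21, *Rab33b* under 13, *Stx1a* under 11 and *Rab3gap1* under 9, and none changed direction. The cause of the lost calls was not tested. The 7 genes higher and 4 lower at P12 became 14 and 1 on signals as deposited, 4 and 1 with median scaling, and 2 and 2 with each age fitted alone, and 11 probe sets were higher and 6 lower when all probe sets of the genes were counted. With the replicate block within each age, added after seeing the data, 16 were higher and 6 lower, and with the number as a block across ages 10 and 6. Leaving out 1 array gave 5 to 7 higher and 2 to 6 lower. At P1, 1 gene was lower with either block and 0 to 1 with an array left out.

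The difference between the ages, with 1 gene higher and 0 lower, gave 4 higher on signals as deposited, 2 with quantile normalization within each age or with all probe sets, and 0 with an offset of 1, with no signal filter or without the variance trend. It gave 3 higher and 1 lower with the block across ages and 6 and 3 with the block within an age. With both P12 arrays numbered 1 left out, also chosen after seeing the data, 1 was lower, and with 1 array left out 0 to 2 were higher and 0 to 1 lower. *Syt16* kept this call under 12 of 26 alternatives.

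With age in control retina, 17 higher and 3 lower became 53 and 0 on signals as deposited, 61 and 0 with quantile normalization within each age, 31 and 0 with spike scaling, and 36 and 5 over all probe sets. With median scaling 5 were lower and with the block across ages 10, and leaving out 1 array gave 15 to 19 higher and 1 to 5 lower. In *Otx2* CKO retina, 21 higher and 3 lower became 63 and 0, 60 and 0, and 37 and 0 under the same 3 scalings, and 34 and 6 over all probe sets. With a signal limit of 100, 1 was lower, with the block across ages 6, and leaving out 1 array gave 15 to 26 higher and 1 to 5 lower. The share of called probe sets that were higher with age in control retina was 49.9%, and 36.8% with median scaling, 89.3% with spike scaling and 98.7% with quantile normalization within each age, where the median of all was -0.06, -0.24, 0.65 and 1.67. In *Otx2* CKO retina it was 51.8%, and 91.8% with spike scaling and 99.2% within each age.

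The falls with age turned round under scalings that keep the brighter P12 signals. *Syngr2* gave 0.12 as deposited (adjusted p = 0.735) and 0.31 with quantile normalization within each age (0.492), *Vamp3* gave 0.52 (0.04) and 0.83 (0.00453), and *Rab34* gave 1.01 (0.0021) and 1.29 (3.05e-05), and 0.11 with spike scaling (0.709). The block within an age was not fitted for the comparisons with age, and a fit of each age alone gives no such comparison. The block within an age left 4 residual degrees of freedom and changed no genotype call beyond those named in the report.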
